A study of Mus musculus with 6 samples.

Results

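The genes described here encode the integrins of the mouse and the cytoplasmic adaptors that link them to actin: 16 α subunits on the array, 8 β subunits, the secreted integrin-like protein Itgbl1, and the adaptors Ilk, Tln1, Tln2, Fermt1, Fermt2, Fermt3 and Vcl. They were taken from a list of 34 gene symbols, of which 32 had a probe set, 1 each, among the 19505 named genes measured, while Itga1 and Itga10 were not matched. The data are 6 Affymetrix arrays of heart cells from C57BL/6N mice aged 15 to 16 weeks. Cardiac fibroblasts (CF), which make the heart's matrix, and the beating cardiomyocytes (CM) spent 48 h with phosphate-buffered saline (PBS, titled Sham), with Ccrl2+ macrophage secretome or with Ccrl2- macrophage secretome. Ccrl2 is a receptor-like surface protein that binds the chemoattractant chemerin. Both macrophage populations were sorted from a mixture of 6 wild-type hearts taken 1 week after transverse aortic constriction (TAC), an operation that overloads the left ventricle. The protocols describe culture together with the macrophages themselves, whereas the source labels name their secretome, and a sample description names cardiac macrophages as the cells profiled; the groups follow the source labels. Each of the 6 groups is 1 array, so no difference below has a replicate check and none was tested.

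Integrins are surface receptors made of an α and a β chain, and the pair decides what is bound. The β1 chain joins collagen-binding, laminin-binding and fibronectin-binding α chains, αv chains pair with several β chains to bind the RGD sequence of matrix proteins and to release latent TGF-β, and the β2 chain belongs to leukocytes, where it pairs with αL and αM. Talin and kindlin bind the β tail and switch the receptor on, after which integrin-linked kinase and vinculin tie it to the actin cytoskeleton; in the heart these complexes anchor cardiomyocytes at the costamere and let fibroblasts sense and pull on collagen.

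The sequences shown first are the 250 bases before the annotated start of the 6 genes on which the fibroblast results turn: Itga2 and Itgam, higher with the Ccrl2- secretome; Itga8 and Itgbl1, lowest with that secretome and highest with the other; and Itga11 and Itga4, lower with both. They are RefSeq sequences of assembly GRCm38.p6, printed 5′ to 3′ in the direction of the gene, with capitals marking motif matches.
Itga2, chr13:114932101-114932350, minus strand: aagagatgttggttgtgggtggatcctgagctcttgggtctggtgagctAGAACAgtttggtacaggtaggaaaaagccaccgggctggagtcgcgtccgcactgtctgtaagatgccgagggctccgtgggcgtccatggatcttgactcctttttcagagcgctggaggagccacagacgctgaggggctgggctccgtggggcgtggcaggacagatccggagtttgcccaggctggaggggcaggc
Itgam, chr7:128062390-128062639, plus strand: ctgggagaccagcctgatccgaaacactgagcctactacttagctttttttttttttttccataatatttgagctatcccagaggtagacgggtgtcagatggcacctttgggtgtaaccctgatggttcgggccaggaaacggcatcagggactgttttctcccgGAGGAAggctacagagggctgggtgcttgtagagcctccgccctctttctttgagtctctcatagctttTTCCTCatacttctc
Itga8, chr2:12301945-12302194, minus strand: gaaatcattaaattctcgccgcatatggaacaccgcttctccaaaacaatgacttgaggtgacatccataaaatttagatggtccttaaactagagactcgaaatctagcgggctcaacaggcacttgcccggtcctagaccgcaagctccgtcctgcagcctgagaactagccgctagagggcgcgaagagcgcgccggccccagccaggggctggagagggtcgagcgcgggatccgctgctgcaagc
Itgbl1, chr14:123659890-123660139, plus strand: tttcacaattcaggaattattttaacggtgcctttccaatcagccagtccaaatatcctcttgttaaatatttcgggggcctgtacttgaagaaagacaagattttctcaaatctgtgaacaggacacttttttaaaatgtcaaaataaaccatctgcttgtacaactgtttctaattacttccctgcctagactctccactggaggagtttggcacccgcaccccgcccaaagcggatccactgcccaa
Itga11, chr9:62677605-62677854, plus strand: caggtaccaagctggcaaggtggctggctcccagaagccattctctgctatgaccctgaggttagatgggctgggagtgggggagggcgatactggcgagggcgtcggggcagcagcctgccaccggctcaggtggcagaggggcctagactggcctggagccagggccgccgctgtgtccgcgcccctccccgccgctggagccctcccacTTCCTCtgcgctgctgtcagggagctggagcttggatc
Itga4, chr2:79255176-79255425, plus strand: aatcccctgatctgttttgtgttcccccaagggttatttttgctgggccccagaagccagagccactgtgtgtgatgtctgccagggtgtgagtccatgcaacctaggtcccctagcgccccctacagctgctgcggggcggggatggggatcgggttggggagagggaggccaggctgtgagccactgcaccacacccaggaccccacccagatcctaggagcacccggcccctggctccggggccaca
Of the 34 listed genes, 25 had such a window in the RefSeq table, and 23 of those were on the array, with 28 windows in all because some genes have several starts. Both strands were searched for AP-1 (TGANTCA), the PU.1 core (GAGGAA), the glucocorticoid response hexamer (AGAACA), an NF-kB site and a CArG box, and 0 matches of different motifs overlapped. The Itgam window holds 2 PU.1 cores, the first bases at -84 and -15 from the start, and the Itga11 window holds 1. Itga2 has 1 glucocorticoid response hexamer at -201, while Itga4, Itga8 and Itgbl1 have no match to any of the 5 motifs. Among the 28 windows 9 hold a PU.1 core, against 23.3% of 32851 windows of the same length over all genes, and 5 hold the hexamer, against 16.1%. A CArG box, the sequence bound by serum response factor, lies in 3 windows (Vcl, Fermt2 and a start of Itgb6), against 1.47% of all windows. AP-1 and NF-kB each match 1 window, Itgax and Ilk respectively, against 6.75% and 5.0%. A match describes the letters and no binding was measured.

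Values are log2 probe set levels, so a difference of 1 is 2-fold. To be counted, a gene had to reach 6.55, the middle of all named values and here called the floor, on the higher array of the pair and to be 2-fold apart. For a lower value under the floor, the distance to the floor is given as "at least". The arrays of a cell type shared most of their pattern, with Pearson correlations across genes, which are not independent replicates, of 0.995 to 0.996 between CM arrays and 0.973 to 0.986 between CF arrays. The 95th percentile of the negative control probe sets lay between 10.2 and 10.74, and 9 members exceeded it on all 6 arrays while 15 exceeded it on none. In the comparisons within a cell type, 6.06% to 11.3% of the negative controls reaching the floor lay 2-fold or more apart in each direction, and between the cell types 25.8% were higher in CF and 4.87% lower. The array of CF with the Ccrl2+ secretome had the highest spiked-in control levels, 9.33 for the poly-A spikes against 8.75 with PBS and 8.44 with the Ccrl2- secretome. Because the number of arrays limits the precision, dim members are given as values. In PBS the cell types differed in the direction of their labels: all 12 cardiomyocyte markers were lower in CF by 2-fold or more, and 10 of 11 fibroblast markers were higher. Of the endothelial markers 12 of 13 were lower, so the CM array also carried endothelial transcripts. The CF array also carried cardiomyocyte transcripts, with 11 of 12 markers past the floor and a median level of 9.36. The CM array also carried fibroblast transcripts, with 10 of 11 markers past it and a median of 9.29. Fewer cells of a type and less RNA per cell cannot be told apart in such cultures.

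Of the 32 members, 18 passed the floor on all 6 arrays, 9 on some and 5 on none. Those on none were the leukocyte chains Itgad, Itgae and Itgax, the hemidesmosome chain Itgb4 and the epithelial kindlin Fermt1. All CF arrays lay above all CM arrays for 10 of the 27 members past the floor somewhere (25.5% of 10779 genes), namely Itga8, Itga11, Itgam, Itgav, Itgb5, Itgb7, Itgb8, Itgbl1, Ilk and Tln1. All CM arrays lay above all CF arrays for 7 (28.5% of genes): Itga5, Itga6, Itga9, Itgb3, Itgb6, Tln2 and Fermt2. The first count is above the share of all genes and the second near it. After quantile normalization these members kept their sides, and Fermt3 joined those higher on all CM arrays. The members spread more over the 3 CF arrays, with a median range of 0.92 against 0.58 for all such genes, than over the 3 CM arrays, at 0.37 against 0.29. A range of 1 or more was seen for 12 members in CF (23.7% of genes) and for 3 in CM (2.41%).

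**Figure D1:**
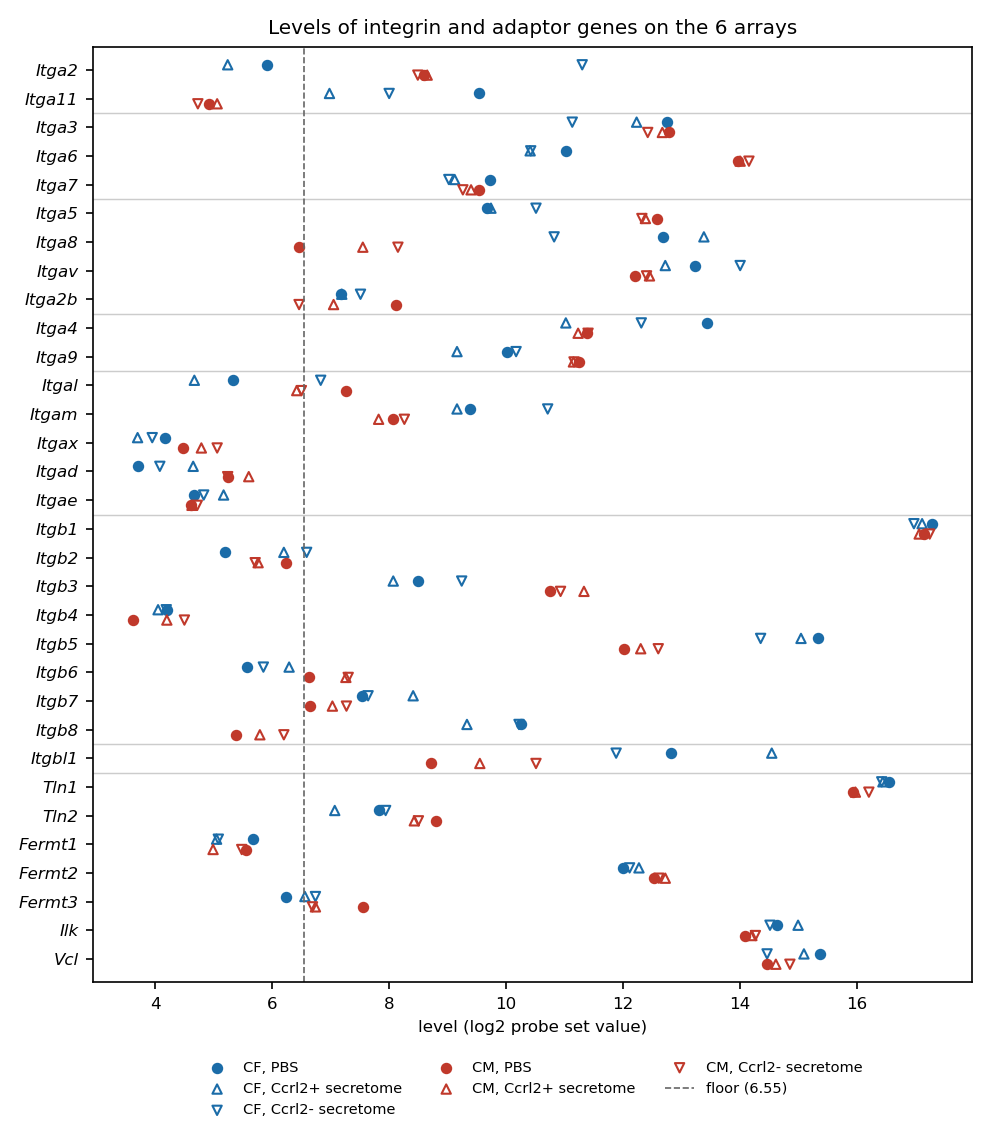
Log2 level of each integrin and adaptor gene on the 6 arrays, grouped by role, with 1 point per array and the floor of 6.55 drawn as a line. The adaptors Tln1, Vcl and Ilk and the chain Itgb1 each stay within 1 log2 unit on all arrays, while Itga2, Itga8, Itgb8 and Itgbl1 are spread over many log2 units.

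In PBS, the fibroblast array had the higher level of the α8, α11, αv and α4 chains and of the β5 and β8 chains, and the cardiomyocyte array the higher level of α6, α5, α2, α9 and β3. Of the 26 members reaching the floor, 8 were higher in CF by 2-fold or more (13.9% of 10394 genes) and 8 were lower (16.9%). The median difference was 0.17, against 0.01 for all genes. The higher 8 were Itga8, Itgb8, Itga11, Itgbl1, Itgb5, Itga4, Itgam and Itgav, and the lower 8 were Itga6, Itga5, Itga2, Itgb3, Itgal, Fermt3, Itga9 and Itgb6. Both shares exceed those of all genes. Of the negative controls reaching the floor, 25.8% were higher in CF and 4.87% lower, so the count of higher members is near the share of controls. Itgal, Fermt3 and Itgb6 lie close to the floor, with bounds of at least 0.72, 1.01 and 0.08 lower in CF.

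With the Ccrl2- secretome, fibroblasts had far more Itga2 and more of the leukocyte chains Itgam, Itgal and Itgb2 than with PBS, and less Itga8, Itga3, Itga11 and Itga4. That is 4 of 26 members higher (6.18% of 10057 genes) and 4 lower (4.83%), with a median of 0.04 against -0.09 for all genes. With the Ccrl2+ secretome, Itgbl1 was higher and Itga11 and Itga4 were lower, 1 of 23 members higher (4.87% of 10042 genes) and 2 lower (6.13%), with a median of -0.28 against -0.07. Against each other, the Ccrl2+ array was higher for Itgbl1, Itga8 and Itga3, 3 of 26 members (8.55% of 10144 genes), and lower for 8 (10.1%): Itga2, Itgal, Itgam, Itga4, Itgav, Itgb3, Itga11 and Itga9. The count of lower members in that last comparison, and both counts with the Ccrl2- secretome, are above the background share, whereas the counts with the Ccrl2+ secretome against PBS are near it. Of the 4 higher with Ccrl2-, Itgal and Itgb2 are only at least 0.28 and 0.04 higher against the floor. With lower values lifted to the floor 2 of 26 members were higher, near the 5.57% of all genes then counted. These 3 comparisons share arrays, so a member that is extreme on 1 array enters 2 of them. In both comparisons with PBS the share of negative controls at 2-fold was larger than that of named genes. It was 8.52% higher and 11.2% lower with Ccrl2+, and 6.84% and 6.21% with Ccrl2-. Between the secretomes 7.75% of controls were higher, below the 8.55% of genes, and 11.3% lower, above the 10.1%.

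**Figure D2:**
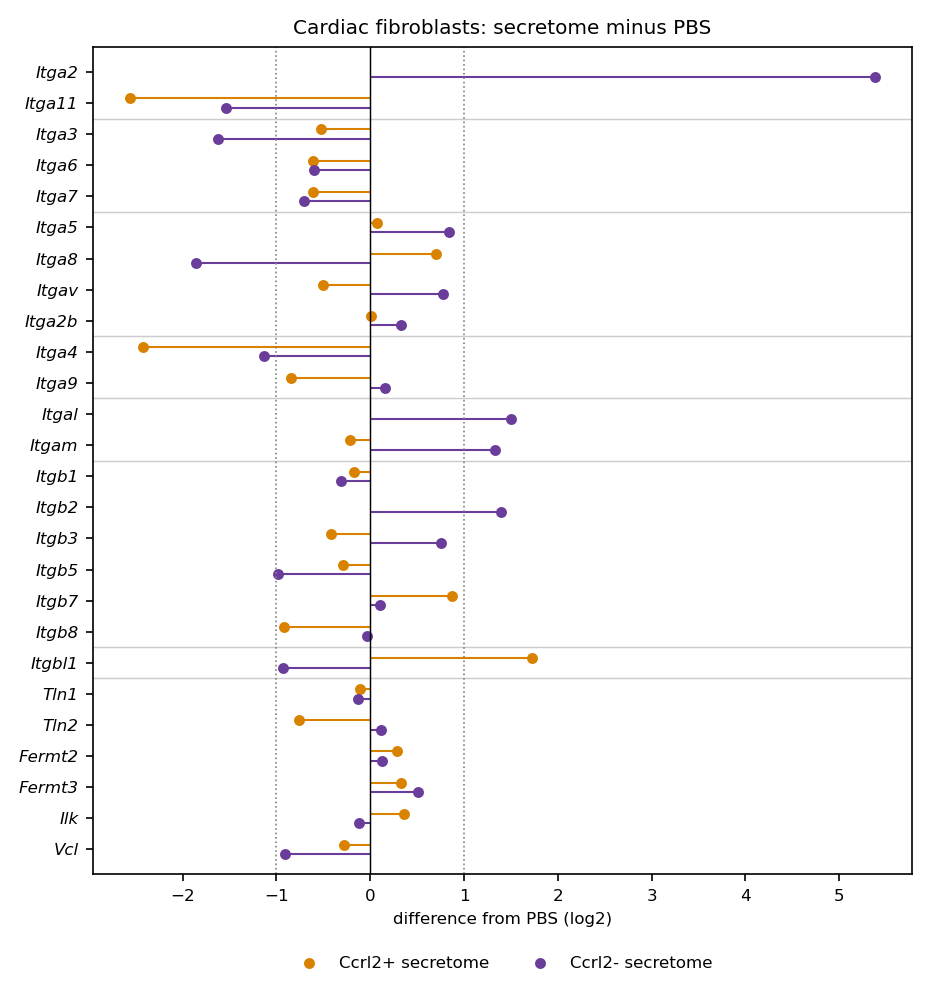
Difference from PBS in CF (log2, x axis) for each member that reached the floor, with the Ccrl2+ secretome in orange and the Ccrl2- secretome in purple, dotted lines at 2-fold, and each point the difference of 1 pair of arrays. Itga2 stands at 5.38 with the Ccrl2- secretome, Itga11 lies below -1 with both, and Itgbl1 stands at 1.73 with Ccrl2+ and -0.93 with Ccrl2-.

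In cardiomyocytes few genes of any kind differed by 2-fold. With the Ccrl2+ secretome 1 of 24 members was higher than with PBS, Itga8 (0.21% of 10009 genes), and 1 lower, Itga2b (0.629%). With the Ccrl2- secretome Itgbl1 and Itga8 were higher, 2 of 24 members (0.746% of 10054 genes), and Itga2b was lower, 1 of 24 (0.786%). Between the secretomes 0 of 23 members were higher (0.13% of 9995 genes) and 0 lower (0.18%). For the Ccrl2- secretome over PBS, the lower value of Itga8 and of Itga2b lies below the floor. The share of negative controls at 2-fold was larger than that of named genes in all 3 CM comparisons, 6.06% to 9.77% in each direction.

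**Figure D3:**
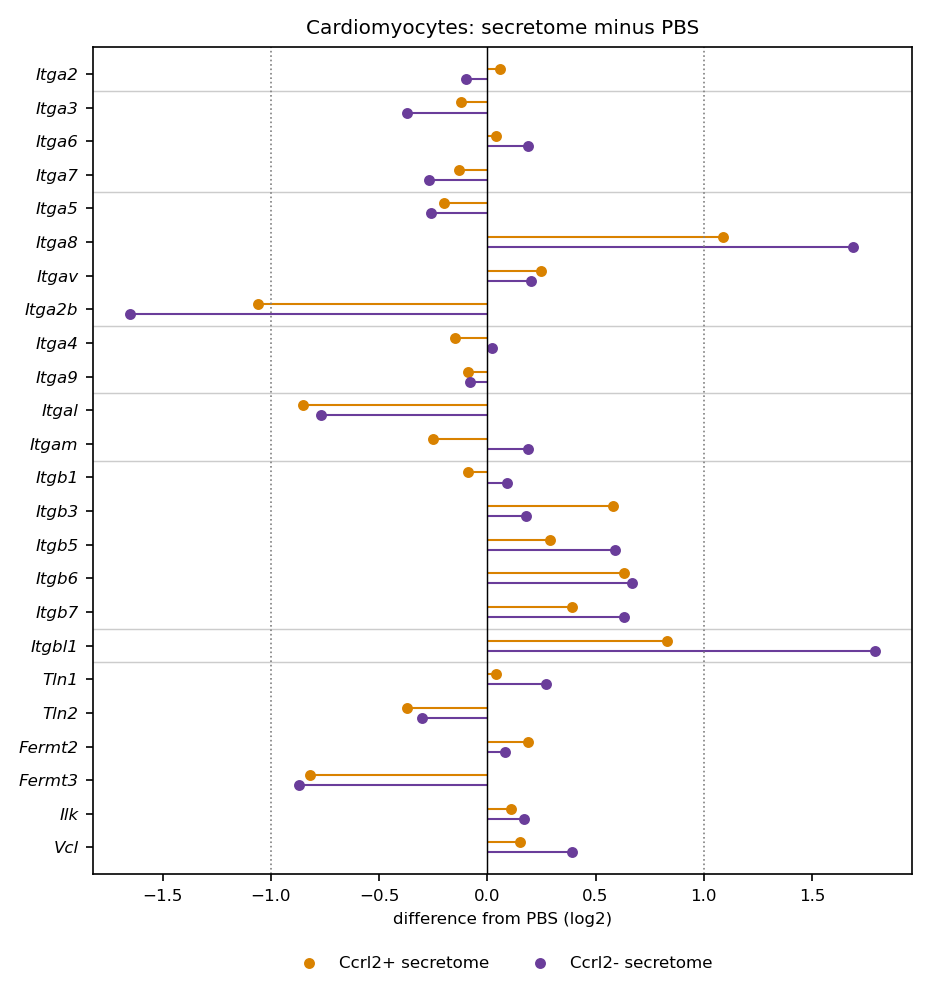
Difference from PBS in CM (log2, x axis) for each member that reached the floor, drawn as for CF, with each point the difference of 1 pair of arrays and dotted lines at 2-fold. Itga8, Itgbl1 and Itga2b pass a dotted line, with Itgbl1 at 1.79 and Itga2b at -1.65 with the Ccrl2- secretome.

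Among the collagen-binding chains, the α2 chain, which pairs with β1 on fibroblasts, epithelium and platelets, had levels in CF of 5.92 with PBS, 5.24 with the Ccrl2+ secretome and 11.3 with the Ccrl2- secretome. In CM the same arrays in order gave 8.59, 8.65 and 8.49. A single CF array was thus high, above all CM arrays, and the other CF arrays were below the floor. The difference of the Ccrl2- secretome over PBS was 5.38, at least 4.75 against the floor (at least 26.9-fold), and that of the Ccrl2+ over the Ccrl2- secretome was -6.06, also at least 4.75 in size. The α11 chain, a fibrillar collagen receptor of fibroblasts, followed another order, 9.54 with PBS, 6.98 with Ccrl2+ and 8.0 with Ccrl2-, and lay below the floor on all CM arrays (4.92, 5.06 and 4.73). Itga11 was therefore highest without secretome, 5.90-fold over Ccrl2+ (-2.56 from PBS), with -1.54 for Ccrl2- over PBS and -1.02 for Ccrl2+ over Ccrl2-. That last difference was -0.97 after quantile normalization and then not counted. Itga11 did not exceed the negative controls' 95th percentile on any array, and Itga2 did so on 1.

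Of the laminin-binding chains, only α3 was counted in a secretome comparison. The α3 chain measured 12.75 with PBS, 12.23 with Ccrl2+ and 11.13 with Ccrl2- in CF, against 12.79, 12.67 and 12.42 in CM. Its CF array with the Ccrl2- secretome was the lowest of the 6, -1.62 from PBS, and the Ccrl2+ array was 1.1 above it. The α6 chain, which is also high on endothelium, measured 11.02, 10.41 and 10.42 in CF and 13.96, 14.0 and 14.15 in CM, without overlap of the cell types. Itga7, the main laminin receptor chain of muscle fibres, measured 9.73, 9.12 and 9.02 in CF and 9.53, 9.4 and 9.26 in CM. Its values in the cell types overlapped, and none of its levels exceeded the 95th percentile of the negative controls.

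Of the RGD-binding chains, α8 separated the groups most. Itga8, the receptor chain for nephronectin, measured 12.68 with PBS, 13.38 with Ccrl2+ and 10.82 with Ccrl2- in CF, and 6.46, 7.55 and 8.15 in CM. In CF the Ccrl2- secretome gave the lowest value, -1.86 from PBS (3.63-fold lower) and 5.90-fold under the Ccrl2+ secretome. In CM it gave the highest, 1.69 over PBS or at least 1.60, with 1.09 (at least 1.00) for the Ccrl2+ secretome. Itgav, the chain shared by the TGF-β-releasing integrins, measured 13.22, 12.72 and 14.0 in CF and 12.2, 12.45 and 12.4 in CM. The highest of its values was in CF with the Ccrl2- secretome, 0.78 above PBS, and the Ccrl2+ over Ccrl2- difference was -1.28. Itga5, the classical fibronectin receptor chain, measured 9.67, 9.74 and 10.51 in CF, and its CM values of 12.58, 12.38 and 12.32 were all higher. The platelet chain Itga2b measured 7.18, 7.19 and 7.51 in CF, and in CM 8.11 with PBS, 7.05 with Ccrl2+ and 6.46 with Ccrl2-. The CM differences from PBS were -1.06 and -1.65, the second at least 1.56 in size. Of the 7 platelet and megakaryocyte markers on the array, only Clec1b passed the floor in CM, at 9.05, 8.33 and 8.01 in that order, and Gp9, a defining marker, was below the floor on all 6 arrays; the part of such cells in the Itga2b values was not tested.

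The α4 and α9 chains bind VCAM-1, fibronectin, osteopontin and tenascin-C. Itga4 measured 13.44 with PBS in CF, 11.02 with Ccrl2+ and 12.31 with Ccrl2-, against 11.38, 11.23 and 11.4 in CM. The PBS fibroblast array was the highest, 5.35-fold above Ccrl2+ (-2.42 from PBS) and with -1.13 for Ccrl2- over PBS, and with the Ccrl2+ secretome the level lay under all CM arrays. Itga9 measured 10.01, 9.16 and 10.17 in CF and 11.24, 11.15 and 11.16 in CM, so its lowest value was in CF with Ccrl2+. Its difference between the secretomes was -1.01, and -0.99 after quantile normalization.

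Of the leukocyte chains, Itgam passed the floor on all 6 arrays, Itgal on 2 and the partner chain Itgb2 on 1. Itgam, the αM chain of macrophages and neutrophils, measured 9.38 with PBS, 9.16 with Ccrl2+ and 10.71 with Ccrl2- in CF, and 8.07, 7.82 and 8.26 in CM. Its level with the Ccrl2- secretome was 1.33 over PBS (2.51-fold) and 1.55 over the Ccrl2+ secretome. Itgal, the αL chain, measured 5.33, 4.67 and 6.83 in CF and 7.27, 6.42 and 6.5 in CM, and its partner Itgb2 measured 5.2, 6.2 and 6.59 in CF and 6.24, 5.76 and 5.71 in CM. The CF differences of the Ccrl2- secretome over PBS were 1.5 for Itgal and 1.39 for Itgb2, but only at least 0.28 and 0.04 against the floor, and Itgb2 was not counted after quantile normalization. Macrophage markers were present in CF: 14 of 15 passed the floor with PBS and with either secretome. With the Ccrl2- secretome 3 of these 14 were counted as higher than with PBS and 7 as lower; their median was -0.89 and their summed level 144.2 against 151.0. The 3 higher were Cd14 (11.3 against 8.54), Lyz2 (13.84 against 12.52) and Adgre1 (10.45 against 9.24), named because they are so few. The 7 lower were led by C1qa (9.42 against 11.22), C1qc (8.11 against 9.84) and Mrc1 (11.04 against 12.76). Ptprc, the pan-leukocyte marker, was at 9.17 against 9.06. On that array 0 of 10 neutrophil markers passed the floor. In CM, where Itgal was at -0.85 with Ccrl2+ and -0.77 with Ccrl2- over PBS, macrophage markers were lower too: 0 of 13 were counted as higher and 7 as lower with Ccrl2+ (median -1.0), and 0 in either direction with Ccrl2- (median -0.59). The part of macrophages in the values of Itgam, Itgal and Itgb2 was not tested.

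Of the β subunits, Itgb1, the common partner chain, had a narrow range, from 16.97 in CF with Ccrl2- to 17.28 in CF with PBS, with CM at 17.15, 17.06 and 17.24. In CF, Itgb1 was at -0.31 with Ccrl2- over PBS and -0.17 with Ccrl2+ over PBS. Its partner chain Itga11 was at -1.54 and -2.56 in the same order. The partner chain Itga2 was at 5.38 with Ccrl2-, and with Ccrl2+ both of its values were below the floor. Itgb5, an αv partner, measured 15.33, 15.04 and 14.35 in CF and 12.01, 12.3 and 12.6 in CM. Its CF value with Ccrl2- was -0.98 from PBS, just short of 2-fold. Itgb8, the other αv partner that releases TGF-β without traction, measured 10.25, 9.33 and 10.22 in CF and lay below the floor in CM at 5.38, 5.79 and 6.2. Itgb5 and Itgb8 were thus higher on every CF array than on any CM array, the reverse of the αv partners Itgb3 and Itgb6, and the lowest CF array was Ccrl2- for Itgb5 and Ccrl2+ for Itgb8. Itgb3, the β chain that joins αv or the platelet chain Itga2b, measured 8.49, 8.07 and 9.24 in CF and 10.75, 11.33 and 10.93 in CM, with -1.17 for Ccrl2+ over Ccrl2- in CF. Itgb7, the leukocyte partner of α4, measured 7.54, 8.41 and 7.64 in CF and 6.64, 7.03 and 7.27 in CM. Its highest value was in CF with Ccrl2+, and the lowest CF value was 0.27 above the highest in CM. The epithelial chain Itgb6 passed the floor only in CM, at 6.63, 7.26 and 7.3.

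Itgbl1, a secreted protein with the cysteine-rich repeats of a β chain and no membrane anchor, measured 12.81 with PBS, 14.54 with Ccrl2+ and 11.88 with Ccrl2- in CF. In CM it measured 8.72, 9.55 and 10.51. The Ccrl2+ secretome gave the highest CF value, 3.32-fold over PBS and 6.32-fold over Ccrl2-, whereas the Ccrl2- secretome gave the highest CM value, 3.46-fold over PBS (1.79). Itgbl1 and Itga8 had the same order of arrays within CF and within CM. In CM, fibroblast markers had that order too: their summed level over 11 genes was 107.0 with PBS, 111.6 with Ccrl2+ and 116.5 with Ccrl2-. With Ccrl2- over PBS 4 of the 11 were counted as higher and 0 as lower, among them Col3a1 (10.93 against 8.78) and Tcf21 (7.52 against 6.2), and the median was 0.91. Cardiomyocyte markers in CM had a median of -0.12 in that comparison. The order in CM was not particular to fibroblast markers. With PBS, Ccrl2+ and Ccrl2-, epicardial and mesothelial markers summed to 61.0, 62.7 and 65.6. Smooth muscle and pericyte markers summed to 92.8, 95.4 and 96.8. In CF, for the Ccrl2+ over the Ccrl2- secretome, 5 of 11 fibroblast markers (median 0.89) and 10 of 11 cardiomyocyte markers (median 1.45) were counted as higher. The part of cell composition in the Itgbl1 and Itga8 values was not tested.

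**Figure D4:**
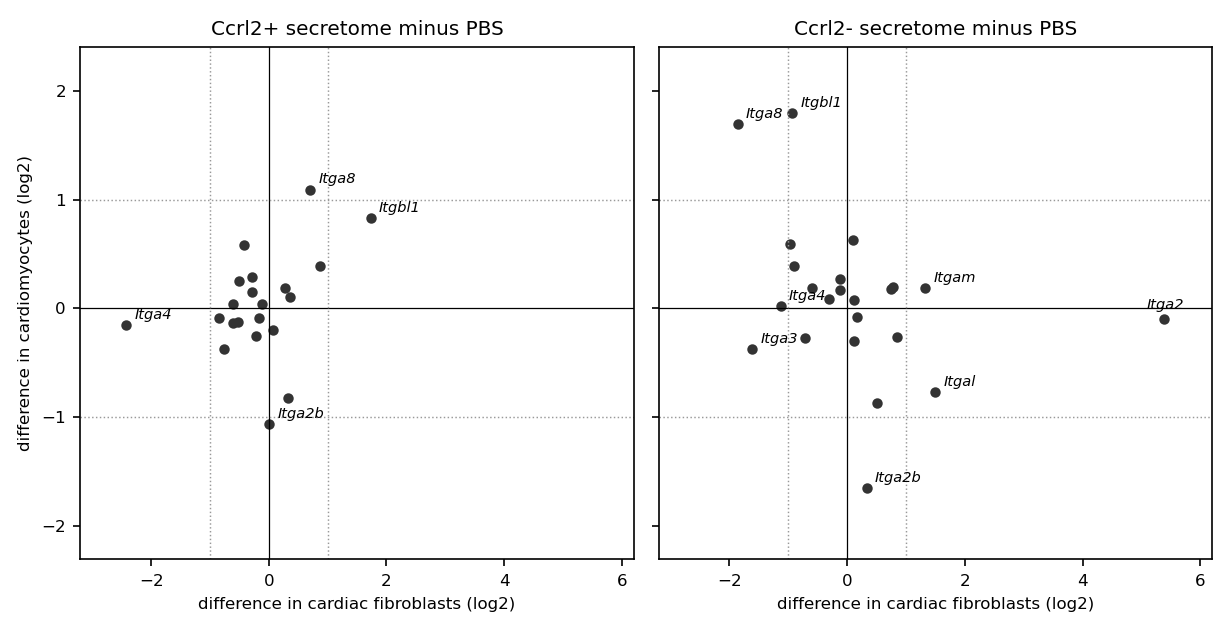
Difference from PBS in CM (y axis, log2) against that in CF (x axis, log2) for each member that reached the floor in both, with a panel for each secretome, 1 point per member and dotted lines at 2-fold. Itga8 and Itgbl1 are positive in both cell types with Ccrl2+, and with Ccrl2- they lie at -1.86 and -0.93 in CF and 1.69 and 1.79 in CM.

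Of the 7 adaptors 6 reached the floor, and 0 of these were counted in any secretome comparison, where 0.13% to 10.1% of all genes were counted per direction, so that a count of 0 among 6 is near the background. Tln1, which switches integrins on, measured 16.55, 16.44 and 16.42 in CF and 15.93, 15.97 and 16.2 in CM. Ilk measured 14.63, 14.99 and 14.51 in CF and 14.09, 14.2 and 14.26 in CM. For both genes every CF array was above every CM array, by a gap of 0.22 for Tln1 and 0.25 for Ilk, which are small against the gap of 2.67 for Itga8. Vcl, which reinforces adhesions under tension, measured 15.37, 15.09 and 14.46 in CF, so that the Ccrl2- secretome gave the lowest value there, and 14.46, 14.61 and 14.85 in CM. Fermt2, the kindlin of mesenchymal cells, measured 11.99, 12.27 and 12.11 in CF and was higher on every CM array, at 12.53, 12.72 and 12.61. The order of the cell types was thus reversed between Tln1 and Fermt2. Tln2, the talin form enriched in muscle, measured 7.83, 7.07 and 7.94 in CF and 8.8, 8.43 and 8.5 in CM. Fermt3, the kindlin of blood cells, measured 6.23, 6.56 and 6.74 in CF and 7.56, 6.74 and 6.69 in CM, near the floor throughout.

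The ligands and partners of these receptors were read from 4 lists. Among cell surface counter-receptors, Icam1 and Vcam1 had the largest differences of the secretome comparisons in CF. Icam1, the ligand of αL and αM, measured 7.22 with PBS, 7.41 with Ccrl2+ and 13.31 with Ccrl2- in CF, and Vcam1, the ligand of α4, measured 14.11, 13.77 and 17.24. For both the Ccrl2- array was the highest of the CF arrays and of all 6, while in CM Icam1 measured 11.71, 11.3 and 11.28 and Vcam1 15.45, 15.52 and 15.35. In CF with Ccrl2- 3 of the 10 genes of this list that reached the floor were counted as higher than with PBS, the other being Cd47 (1.2), and 0 as lower, against 6.18% and 4.83% of all genes; the median was 0.23. With Ccrl2+ 1 of 11 was higher, Adam15 (1.76, at least 1.33), and 0 lower, against 4.87% and 6.13%.

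Of the matrix ligands in CF, 0 of 31 were higher and 2 lower with Ccrl2+ than with PBS, against 4.87% and 6.13% of all genes. Those 2 were Tnc (-1.75), the tenascin-C bound by α9, and Npnt (-1.07), the nephronectin bound by α8. Their count is near the share of all genes. With Ccrl2- 3 of 32 were higher and 3 lower, against 6.18% and 4.83% of all genes. Agrn, a basement membrane proteoglycan, was 1.96 higher, and the laminin chain gene Lama1 measured 7.23 against 5.52, the latter below the floor. Tgfb3 and Tgfb2 were at -1.64 and -1.38, whereas a further TGF-β gene of the list was not lower. Between the secretomes 2 of 32 were higher and 4 lower (8.55% and 10.1% of all genes), led by Agrn (-2.88) and Tnc (-2.28). In CM 0 of 31 were counted with Ccrl2+ over PBS, against 0.21% higher and 0.629% lower of all genes. The fibrillar collagens Col3a1, Col1a2 and Col1a1 were 2.15, 1.37 and 1.17 higher with Ccrl2- than with PBS in CM. They made 3 of 31 genes, with 0 lower (0.746% and 0.786% of all genes). Col3a1 and Col1a1 are also among the fibroblast markers, of which 4 of 11 were higher in that comparison, and the part of fibroblasts in the collagen values was not tested. In PBS 15 of 31 ligands were higher in CF than in CM and 2 lower (13.9% and 16.9% of all genes), with a median of 0.98.

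Of the focal adhesion partners in CF, 6 of 32 were higher with Ccrl2+ than with Ccrl2- and 1 lower, against 8.55% and 10.1% of all genes, and their median was 0.39 against 0.0. The 4 with the largest differences were Lims2, a PINCH protein that binds Ilk (2.88), the tensins Tns1 and Tns2, which bind β tails (2.28 and 2.27), and the vinculin-binding Sorbs3 (1.73). Lims2 measured 9.75 with PBS, 11.09 with Ccrl2+ and 8.21 with Ccrl2-, and Tns1 measured 16.0, 17.1 and 14.82, so PBS lay between the secretomes for both. Marker genes of several cell types were higher in the same comparison. They were 10 of 11 for cardiomyocytes (median 1.45), 5 of 11 for fibroblasts (0.89) and 4 of 7 for epicardium and mesothelium (1.06), each with 0 lower. Of 14 macrophage markers 8 were higher and 2 lower, Cd14 (-4.02) and Adgre1 (-1.04), with a median of 1.21. The part of these cell types in the partner values was not tested. Against PBS, 3 of 32 partners were higher and 0 lower with Ccrl2+ (4.87% and 6.13% of all genes), and 0 were higher and 3 lower with Ccrl2- (6.18% and 4.83%). The regulators of integrin activity in CF had 0 of 20 counted with Ccrl2+ over PBS, against the same 4.87% and 6.13%. With Ccrl2- 0 of 20 were higher and 1 lower, Kank2 (-1.13), a talin-binding protein. That count is near the 4.83% of all genes. In CM the focal adhesion partners had 0 of 33 counted with Ccrl2+ and 1 lower with Ccrl2-, Flnc (-1.21). Of the 20 regulators 1 was lower with Ccrl2+, Fyb (-1.12), and 0 were counted with Ccrl2-. The shares of all genes in CM were 0.21% higher and 0.629% lower with Ccrl2+, and 0.746% and 0.786% with Ccrl2-. Between the cell types in PBS, Parvb, the parvin that binds Ilk in muscle, and Itgb1bp2 (melusin), the muscle protein that binds the β1 tail, were at least 4.01 and 4.12 lower in CF.

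**Figure D5:**
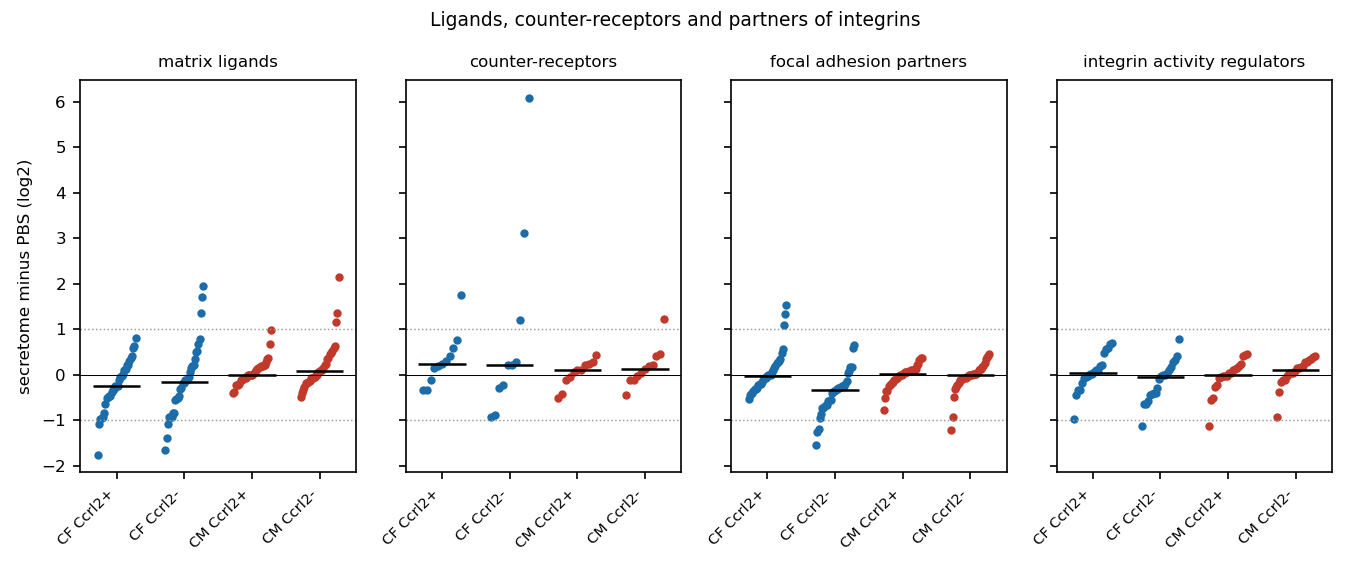
Difference from PBS (log2, y axis) of each gene of the 4 lists that reached the floor, for both secretomes in CF (blue) and CM (red), with 1 point per gene, bars at the medians and dotted lines at 2-fold. The highest points, at 6.09 and 3.13, are Icam1 and Vcam1 in CF with the Ccrl2- secretome, and most points in CM lie between the dotted lines.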

How the data were processed

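Total RNA, 1 to 8 ug, of 6 cultures was hybridised to Affymetrix arrays, per the labels' protocols. The authors deposited log2 values per probe set; the submitters' processing notes name Affymetrix Expression Console. Its version, the summary method and the genome build were not given in the sources used here, and no gene coordinates are printed. Sorted values of the arrays nearly coincide (mean gap 0.09, largest 0.3), so a change of most genes in 1 direction would not be seen.

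Of 28846 probe sets, the platform annotation gave 1 symbol for 19572, several for 0 and none for 9274, and the RefSeq table of GRCm38.p6 held the Entrez identifier of all 19572. For 55 symbols with several probe sets the brightest was used, leaving 19505 genes. Groups came from the source labels. In 7 comparisons 1 array was subtracted from another and genes were counted by the 2-fold rule with the floor. No p-value was computed.

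Members, lists, motifs and comparisons were chosen with earlier results of these data known. All members could be named; of each partner list at most 4 genes per comparison, the largest counted differences or, with none counted, those nearest 0; of marker lists, the brightest 3 members, the members with the largest differences, and those named as few. The promoter windows come from RefSeq, and 2 further motifs were dropped after their counts were seen.

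The 8 alternatives were 1.5-fold and 3-fold thresholds, quantile normalization, removal of a loess trend (span 0.4), averaging of probe sets, omission of the floor, a floor of 10.14 (the 75th percentile), and lifting of lower values up to the floor. Counting was tested on simulated data with known differences. The software was Python 3.11.15 with matplotlib 3.10.9, statsmodels 0.14.6, scipy 1.17.1, pandas 2.3.3 and numpy 2.4.6.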

Additional observations from a re-analysis of the deposited data

Results flagged for a closer look

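Itga8 and Itgbl1 differed in opposite directions in the cell types for Ccrl2- over PBS and between the secretomes. The differences were 2-fold or more in at least 1 cell type and 1.5-fold or more in the other. For Ccrl2+ over PBS both genes were higher in both cell types, Itga8 by 0.7 in CF and 1.09 in CM, Itgbl1 by 1.73 and 0.83. Itgal went in opposite directions for Ccrl2- over PBS by its measured values. Against the floor its differences are only at least 0.28 in CF and at least 0.72 in CM. Each direction rests on 1 array per group, and the difference between the cell types was not tested. With the Ccrl2- secretome over PBS, Itga8 was at -1.86 in CF and 1.69 in CM, the second at least 1.6 because the PBS value lies below the floor. Both of these CM values of Itga8, 8.15 and 6.46, lie under the 95th percentile of the negative controls. Itgbl1 was at -0.93 in CF and 1.79 in CM in the same comparison. Itgal was at 1.5 in CF and -0.77 in CM, with the lower value of each pair below the floor; the macrophage markers had a median of -0.89 in CF and -0.59 in CM there. For the Ccrl2+ over the Ccrl2- secretome, Itga8 was at 2.56 in CF and -0.6 in CM. Itgbl1 was at 2.66 in CF and -0.96 in CM.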

How the results depend on the processing

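The counts of members at 2-fold moved by more than 1.5 times mainly with the threshold and the floor, and no counted difference of a single member turned its direction under any of the 8 alternatives. At 1.5-fold, the counts of higher and lower members were 3 and 7 for the Ccrl2+ secretome over PBS in CF, 7 and 9 for Ccrl2- over PBS in CF, 3 and 3 for Ccrl2+ over PBS in CM, 5 and 3 for Ccrl2- over PBS in CM, and 1 and 2 between the secretomes in CM, and 6 members were higher between the secretomes in CF. At 3-fold, 1 was higher and 2 lower for Ccrl2- over PBS in CF, 2 lower between the secretomes in CF, 0 and 0 for Ccrl2+ over PBS in CM, and 5 lower for CF over CM. With the floor at the 75th percentile, the counts were 1 lower for Ccrl2+ over PBS in CF, 2 higher for Ccrl2- over PBS in CF, 5 lower between the secretomes in CF, 0 and 0 for Ccrl2+ over PBS in CM, 1 higher and 0 lower for Ccrl2- over PBS in CM, and 4 lower for CF over CM. Without a floor 2 members were higher for Ccrl2+ over PBS in CF (3.17% of genes). With lower values lifted to the floor 2 were higher for Ccrl2- over PBS in CF (5.57%). The threshold and the floor set these counts by their construction, and the share of all genes moved with them. At 1.5-fold it was 10.6% to 19.2% per direction in the secretome comparisons in CF and 2.18% to 4.63% in CM, at 3-fold 1.01% to 5.05% and 0% to 0.109%, and with the higher floor 4.44% to 10.5% and 0% to 0.451%. For CF over CM the share of genes lower was 9.95% at 3-fold and 17.5% with the higher floor. After quantile normalization 4 member differences were no longer counted, those of Itga9 (-0.99) and Itga11 (-0.97) between the secretomes in CF and of Itgav for CF over CM, and the upper value of Itgb2 with Ccrl2- over PBS fell under the floor. Itga2b (-1.02) and Tln2 (-1.06) were newly counted for CF over CM. With the floor at the 75th percentile the median over members past it was 0.02 between the secretomes in CF (-0.25 otherwise) and -0.13 for Ccrl2- over PBS in CF (0.04 otherwise).

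With 1 array per group no spread between samples was measured, and no array was left out. No paired analysis was possible because each group has 1 array and the labels give no replicate numbers. Signal over background limits Itga2b, Itgal, Itgb2, Itgb6, Itgb7, Fermt3 and Tln2, which lie near the floor. It also limits Itga8 in CM, where its values of 6.46, 7.55 and 8.15 all lie under the negative controls' 95th percentile. Itga7, Itga11 and Itgb8 did not exceed that percentile on any array.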
